A study of Caenorhabditis elegans with 14 samples.

Results

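The comparison described here set worms that had lost most of their skn-1 mRNA to RNA interference against worms with their usual skn-1 level, both in a strain with reduced insulin/IGF-1 signalling. It used 4 of the 14 RNA-seq libraries of the series. The rIIS;skn-1i group, called skn-1 RNAi below, held 2 libraries of Caenorhabditis elegans with the mutations rrf-3(pk1426) and daf-2(e1368), fed from the L1 larval stage on HT115 Escherichia coli that made double-stranded RNA against skn-1. The rIIS-C group held 2 libraries of the same double mutant fed on the same bacteria with the empty L4440 vector. Neither group was heat-shocked. All worms were grown at 20 °C and collected whole. The labels give their stage as L4 to young adult, while the study's methods for RNA name young adult to gravid worms, so the stage of each library is not certain. The study describes the 2 libraries of a group as biological replicates. The rrf-3 mutation makes worms more sensitive to RNA interference and was carried by every group of the series. The daf-2 mutation lowers the activity of the insulin/IGF-1 receptor. The groups used for reference beyond these were rIIS;daf-16i (the double mutant on daf-16 RNAi, called daf-16 RNAi below), C (rrf-3 alone on empty vector), and the heat-shocked pair rIIS;hsf-1i (HS), which is hsf-1 RNAi, and rIIS-C (HS).

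SKN-1 is a transcription factor related to mammalian Nrf proteins. In the intestine it switches on genes for the detoxification of foreign and oxidized compounds, such as glutathione S-transferases and the enzymes that make glutathione, and in the early embryo it specifies the tissue that gives rise to the gut. Insulin/IGF-1 signalling restrains SKN-1 as it does the FOXO factor DAF-16, and daf-2 mutants need both for their full resistance to oxidative stress. The kinases SEK-1 and PMK-1 act on SKN-1 from above, and WDR-23 keeps it low in unstressed worms.

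The depth was 6331130 and 12005877 exon reads in the skn-1 RNAi libraries, against 4681170 and 12726797 in the rIIS-C libraries. Of the 46856 genes listed, 13892 had enough reads in the 12 libraries fitted together to be tested. In both groups replicate 1 and replicate 2 came from different kinds of read, called read class below: reads across exon junctions made up 9.49% and 23.6% of the reads of skn-1 RNAi replicates 1 and 2, against 9.69% and 26.3% of those of rIIS-C replicates 1 and 2. The ratio within each such pair is therefore given beside the main results. The skn-1 RNAi libraries also stood apart in composition. Ribosomal RNA took 1.68% and 9.80% of their gene reads, against 0.334% and 0.420% in rIIS-C, intron reads took 3.79% and 12.8%, against 3.44% and 3.13%, and the 10 most abundant genes took 13.7% and 12.3% of exon reads, against 10.9% and 6.19%. Ribosomal RNA genes held 0.0% of exon reads in each library. Their reads were counted as intron reads, so the intron share includes the ribosomal RNA share and is not a separate difference. The scaling factors that edgeR estimated by the trimmed mean of M values (TMM) were 0.727 and 0.664 in skn-1 RNAi, against 1.19 and 1.52 in rIIS-C. The part of these differences in the results below was not tested. Levels below are in CPM (exon read counts over the TMM-scaled library size), each fold change is that of skn-1 RNAi over rIIS-C on the log2 scale with its standard error (SE), and a gene is said to have risen or fallen only where its adjusted p from edgeR was under 0.05. Because whole worms were sequenced, fewer cells of a type and less RNA per cell cannot be told apart.

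skn-1 itself (chromosome IV, positions 5651764 to 5660384 of WBcel235) was measured at 28.1 and 27.1 CPM in the skn-1 RNAi libraries, against 164 and 110 CPM in the rIIS-C libraries. These values rested on 129 and 216 reads in skn-1 RNAi and on 910 and 2122 reads in rIIS-C. Both RNAi libraries lay far below both control libraries, and daf-16 RNAi (124 and 104 CPM) and C (105 and 97.9 CPM) were close to the controls. The transcript was lower by 2.31 on the log2 scale (log2 fold change -2.31, SE 0.21, edgeR adjusted p = 5.61e-06), with -2.54 between the replicate 1 libraries and -2.02 between the replicate 2 libraries.

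**Figure D1:**
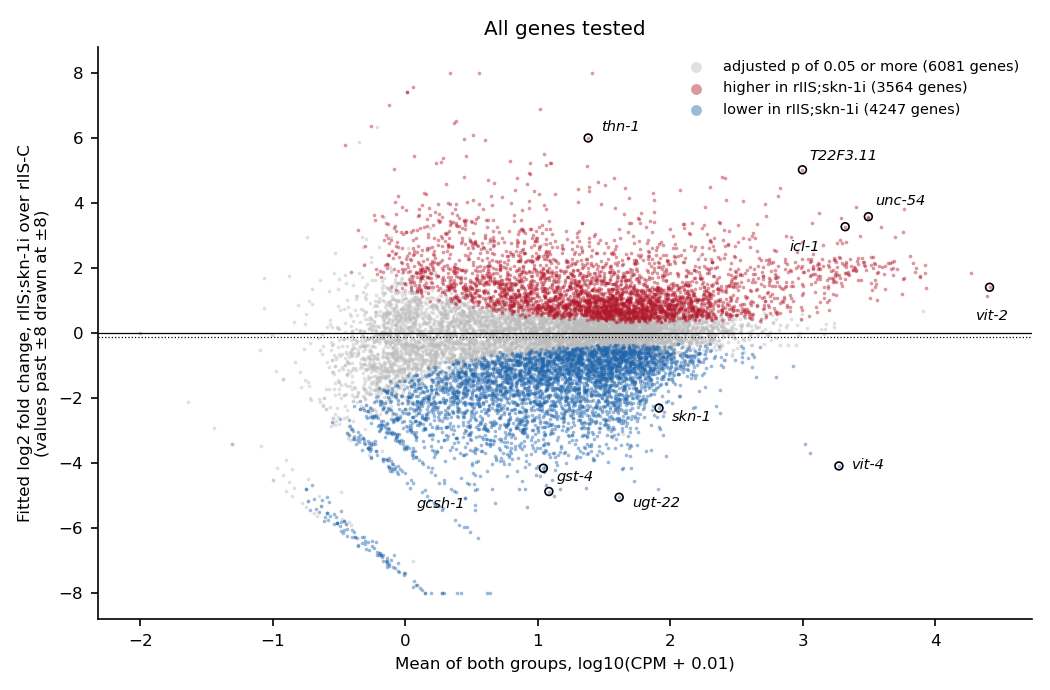
Log2 fold change of skn-1 RNAi over rIIS-C (vertical axis, values beyond 8 drawn at the edge) against mean expression (horizontal axis, log10 of CPM) for the 13892 genes tested, with the dotted line at their median of -0.13. Genes that rose (3564) and genes that fell (4247) are coloured, the other 6081 are grey, and labels mark genes named in the text such as skn-1, vit-4 and T22F3.11.

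Between skn-1 RNAi and rIIS-C 56.2% of the genes tested differed, in both directions: 3564 genes were higher (25.7%) and 4247 were lower (30.6%). Of these, 2183 rose and 3110 fell at least 2-fold, and 232 rose and 547 fell at least 8-fold. The values of the libraries did not overlap for 72.3% of the genes, with both skn-1 RNAi libraries above both rIIS-C libraries for 33.3% and below them for 39.0%. Each list of genes below is to be read against these shares, and against a median log2 fold change of -0.13 over all 13892 genes. The balance of directions rested on the scaling. With library totals alone 1112 genes were higher and 8777 lower, and the median over all genes was -1.10. Counts of higher genes therefore hold relative to the bulk of the transcriptome, and the median of a list by library totals is given where its sign turned.

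Among SKN-1 and the genes that regulate it, 2 genes of the p38 kinase branch rose and brap-2 and xrep-4 fell. sek-1, the kinase that activates PMK-1, was at 37.0 and 43.4 CPM in skn-1 RNAi, against 26.5 and 23.2 CPM in rIIS-C (log2 fold change 0.71, SE 0.15, edgeR adjusted p = 0.00183). tir-1, the adaptor upstream of this cascade, was at 37.0 and 32.2 CPM, against 22.4 and 23.2 CPM in rIIS-C (0.60, SE 0.14, edgeR adjusted p = 0.00458). Both stayed above the controls in each library, but by library totals their log2 fold changes turned to -0.26 and -0.37, while the median gene then stood at -1.10. brap-2, which encodes a ubiquitin ligase homologue whose loss raises SKN-1 target expression, fell to 26.1 and 17.6 CPM, against 73.9 and 65.5 CPM in rIIS-C (-1.69, SE 0.19, edgeR adjusted p = 2.65e-05). xrep-4, an F-box gene that acts on SKN-1 through WDR-23, fell to 42.6 and 43.0 CPM, against 75.7 and 71.6 CPM in rIIS-C (-0.78, SE 0.14, edgeR adjusted p = 0.000557). Of the 12 genes of this list tested (13 listed), 2 rose and 3 fell, skn-1 included, and the other 7 had log2 fold changes between -0.61 and 0.42 (list median -0.23). Both shares lay below those over all genes. Without rIIS-C replicate 2 the number that fell was 6, and wdr-23 (-0.68, edgeR adjusted p = 0.00662) and the SKN-1 coactivator gene mdt-15 (-0.85, edgeR adjusted p = 0.0162) were then among them. With the read class of each library as a block, a fit chosen after the data were seen, 3 rose and 6 fell, and wdr-23 (-0.43, edgeR adjusted p = 0.0183) and mdt-15 (-0.49, edgeR adjusted p = 0.00679) again passed the test as lower.

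Few genes of the insulin pathway itself passed the test. Of 12 genes tested, akt-2 rose and 1 fell, and the other 10 lay between -0.74 and 0.72. Without rIIS-C replicate 1 the list held 3 genes that rose, and without rIIS-C replicate 2 it held 3 that fell. akt-2, a kinase that transmits the insulin signal, was at 26.5 and 33.1 CPM in skn-1 RNAi, against 15.9 and 18.2 CPM in rIIS-C (0.81, SE 0.20, edgeR adjusted p = 0.00493, and -0.18 by library totals), and it lost the call without skn-1 RNAi replicate 2 (0.63, edgeR adjusted p = 0.0617). The receptor gene daf-2 was at 59.1 and 38 CPM, against 115 and 48.2 CPM in rIIS-C, with overlap between the groups (-0.74, SE 0.41, edgeR adjusted p = 0.142). daf-16 was at 120.5 and 82.2 CPM, against 91.9 and 53.5 CPM in rIIS-C, again with overlap (0.49, edgeR adjusted p = 0.126). The TGF-beta ligand gene daf-7 was barely detected, at 1.09 and 1.00 CPM, against 1.44 and 1.14 CPM in rIIS-C (-0.26, edgeR adjusted p = 0.707). Without rIIS-C replicate 1 daf-16 passed the test (0.91, edgeR adjusted p = 0.0081), and without rIIS-C replicate 2 daf-2 did (-1.26, edgeR adjusted p = 0.0172). With the read class block both passed, daf-2 as lower (-0.67, edgeR adjusted p = 0.0114) and daf-16 as higher (0.50, edgeR adjusted p = 0.0195), and the list then held 3 genes that rose and 4 that fell. With the exon length trend removed daf-2 turned to 0.25 (edgeR adjusted p = 0.253) and daf-16 passed as higher (1.12, edgeR adjusted p = 4.65e-05). In that fit the list held 5 genes that rose and 1 that fell. Among the insulin-like peptides, the ligands of this pathway, 15 of 39 had enough reads, and of these 8 rose and 1 fell (median 1.44). ins-17 was at 16.1 and 19.3 CPM, against 3.06 and 2.69 CPM in rIIS-C (2.65, SE 0.26, edgeR adjusted p = 8.95e-06), and ins-37 was at 11.09 and 11.04 CPM, against 3.25 and 4.55 CPM (1.44, SE 0.26, edgeR adjusted p = 0.000742).

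The known detoxification targets of SKN-1 split. Of the 16 on the list 15 were tested, of which 7 fell and 3 rose, with a median log2 fold change of -0.77 (-0.74 between the replicate 1 libraries and -0.46 between the replicate 2 libraries). gst-4, the glutathione S-transferase gene most used as a reporter of SKN-1, was at 1.31 and 1.13 CPM in skn-1 RNAi, against 12.98 and 28.6 CPM in rIIS-C. Both skn-1 RNAi values lay about 10-fold or more below both controls, and the log2 fold change was -4.16 (SE 0.41, edgeR adjusted p = 9.76e-06, and -3.43 without rIIS-C replicate 2). gst-13 fell to 13.9 and 15.8 CPM, against 52.5 and 72.2 CPM in rIIS-C (-2.07, SE 0.20, edgeR adjusted p = 8.17e-06), and gst-10 fell to 9.57 and 10.7 CPM, against 27.4 and 28.4 CPM (-1.46, SE 0.18, edgeR adjusted p = 5.48e-05). gcs-1, the rate-limiting enzyme of glutathione synthesis, fell to 50.5 and 48.0 CPM, against 86.9 and 65.9 CPM in rIIS-C (-0.63, SE 0.16, edgeR adjusted p = 0.00509). It lost the call with the exon length trend removed (-0.12, edgeR adjusted p = 0.415) and with only the groups compared in the fit (-0.54, edgeR adjusted p = 0.105). The 3 other genes that fell, gst-12, gst-30 and nit-1, lost the call without rIIS-C replicate 2 (edgeR adjusted p = 0.228, 0.104 and 0.134), which left 4. gst-12 and nit-1 lost it also without skn-1 RNAi replicate 1 (edgeR adjusted p = 0.0908 and 0.0528), and gst-30 without skn-1 RNAi replicate 2 (edgeR adjusted p = 0.0968). The risers were gst-5 at 43.1 and 73.6 CPM, against 11 and 16.3 CPM in rIIS-C (2.07, SE 0.30, edgeR adjusted p = 0.00014), gst-6 at 63.7 and 82.7 CPM, against 30.3 and 43.8 CPM (0.97, SE 0.21, edgeR adjusted p = 0.00223, and -0.04 by library totals), and ugt-11 at 3.26 and 5.14 CPM, against 2.16 and 2.27 CPM (0.95, edgeR adjusted p = 0.0368, and -0.07 by library totals). ugt-11 lost the call without skn-1 RNAi replicate 2 (edgeR adjusted p = 0.368) or without rIIS-C replicate 1 or 2 (edgeR adjusted p = 0.0681 and 0.119).

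**Figure D2:**
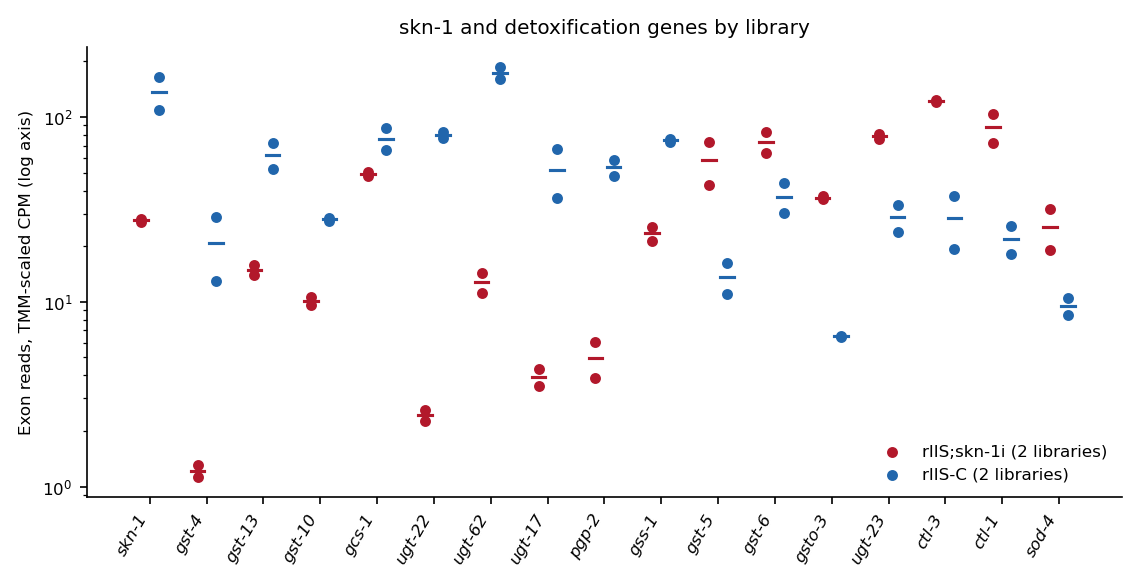
CPM on a log axis for skn-1 and 16 detoxification genes, with points for the libraries, skn-1 RNAi left of rIIS-C, and a line at each group mean. In skn-1 RNAi ugt-22 lies more than 10-fold and gst-4 about 10-fold or more below their controls, while gst-5 and gsto-3 lie above theirs.

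Across the families the UDP-glucuronosyltransferases and the ABC transporters leaned down and the glutathione S-transferases did not. Of 55 UDP-glucuronosyltransferases tested (66 listed), which attach glucose-derived groups to small molecules, 26 fell and 7 rose (median -0.58). ugt-22 was at 2.61 and 2.26 CPM in skn-1 RNAi, against 77.2 and 82.6 CPM in rIIS-C (-5.05, SE 0.19, edgeR adjusted p = 2.28e-07). ugt-62 was at 14.3 and 11.16 CPM, against 185 and 161 CPM (-3.78, SE 0.19), and ugt-17 at 4.35 and 3.51 CPM, against 36.6 and 67.2 CPM (-3.77, SE 0.29). In the opposite direction ugt-23 was at 76.3 and 81.2 CPM, against 33.5 and 23.8 CPM in rIIS-C (1.48, SE 0.17). ABC transporters, the efflux pumps and lipid carriers of the cell, fell in 23 of 45 cases and rose in 7 (median -0.85, and 3 rose without rIIS-C replicate 2), while with the exon length trend removed 16 fell and 10 rose (median -0.24). Among them the P-glycoprotein pgp-2 was at 6.09 and 3.89 CPM, against 58.8 and 48.1 CPM in rIIS-C (-3.46, SE 0.31), and the peroxisomal transporter pmp-1 at 6.96 and 5.52 CPM, against 39.1 and 45.8 CPM (-2.80, SE 0.21). pgp-9 was at 39.6 and 38.1 CPM, against 32.6 and 22.3 CPM in rIIS-C (0.52, edgeR adjusted p = 0.028, and -0.42 by library totals), and it lost the call without rIIS-C replicate 2 (edgeR adjusted p = 0.225) or without skn-1 RNAi replicate 1 or 2 (edgeR adjusted p = 0.0912 and 0.0827). Cytochrome P450 genes fell in 17 and rose in 10 of 52 cases tested out of 75 listed (median -0.32, or -0.29 with genes at 0 set to their bound), a share of falls close to that of all genes, with 10 falling without rIIS-C replicate 2 and 11 without skn-1 RNAi replicate 2. cyp-32B1 was among the risers, at 109 and 125 CPM, against 15.5 and 18.3 CPM in rIIS-C (2.78, SE 0.18). Of 36 glutathione S-transferases tested (49 listed), 15 rose and 8 fell, with a median of 0.43 that turned to -0.56 by library totals, and 5 fell without skn-1 RNAi replicate 1 and 4 without rIIS-C replicate 2. gsto-3, an omega-class member, was at 37.2 and 36.0 CPM, against 6.49 and 6.51 CPM in rIIS-C (2.49, SE 0.23, edgeR adjusted p = 7.46e-06).

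The genes that remove reactive oxygen rose. Of the 7 superoxide dismutase and catalase genes tested (8 listed), 6 rose and none fell (median 1.42, and 0.41 by library totals). The catalase gene ctl-1 was at 72.6 and 103 CPM in skn-1 RNAi, against 18.2 and 25.6 CPM in rIIS-C (1.98, SE 0.25), ctl-2 at 70.0 and 80.3 CPM, against 24.5 and 23.4 CPM (1.65, SE 0.16), and ctl-3 at 123 and 120.5 CPM, against 37.1 and 19.4 CPM (2.15, SE 0.27). These 3 genes are near-copies of each other, and the counting could split reads between them. The cytosolic sod-1 was at 181 and 237 CPM, against 109 and 108 CPM in rIIS-C (0.94, SE 0.19, edgeR adjusted p = 0.00124, and -0.03 by library totals). sod-3, a target of DAF-16, was at 13.1 and 17.6 CPM, against 7.39 and 11.6 CPM (0.65, edgeR adjusted p = 0.044, and -0.36 by library totals), and lost the call without rIIS-C replicate 1 (edgeR adjusted p = 0.174) or skn-1 RNAi replicate 2 (edgeR adjusted p = 0.331). The mitochondrial sod-2 was at 74.8 and 97.7 CPM, against 96.8 and 154 CPM (-0.54, edgeR adjusted p = 0.0852), and passed the test as lower without rIIS-C replicate 1 (-0.83, edgeR adjusted p = 0.0134) and with the read class block (-0.53, edgeR adjusted p = 0.00399). Among the glutathione and thioredoxin genes (23 tested, 8 higher and 6 lower, median 0.04 and -0.96 by library totals, with 3 lower without skn-1 RNAi replicate 1 or rIIS-C replicate 2), the mitochondrial pair prdx-3 (1.17, SE 0.15) and trx-2 (1.33, SE 0.23) rose. gss-1, which completes glutathione synthesis after gcs-1, fell to 25.4 and 21.4 CPM, against 73.2 and 76.4 CPM in rIIS-C (-1.68, SE 0.14, edgeR adjusted p = 3.96e-06).

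**Figure D3:**
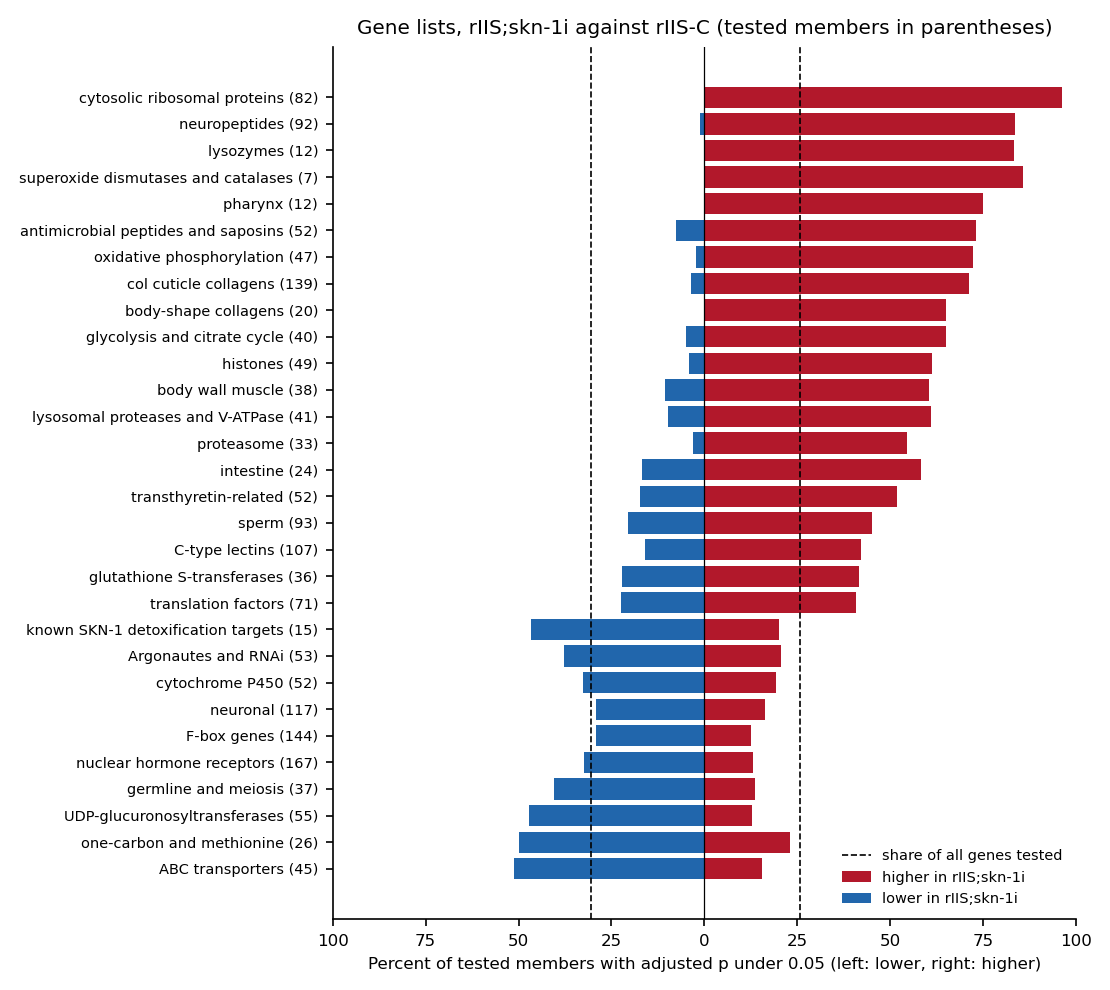
Share of the tested members of 30 gene lists that rose (bars to the right, percent) or fell (bars to the left, percent) in skn-1 RNAi against rIIS-C, with dashed lines at the shares over all genes tested, 25.7% and 30.6%. Ribosomal protein, neuropeptide and collagen genes reach far past the right line, while UDP-glucuronosyltransferases and ABC transporters reach past the left one.

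The most uniform change was in the protein synthesis machinery. Of 82 cytosolic ribosomal protein genes, 79 rose and none fell, with a median log2 fold change of 2.04 (1.69 between the replicate 1 libraries, 2.37 between the replicate 2 libraries, and 1.08 by library totals). These genes took 17.97% and 21.99% of exon reads in skn-1 RNAi, against 9.19% and 9.94% in rIIS-C. rps-13 was at 2414 and 3837 CPM, against 624 and 600 CPM in rIIS-C (2.35, SE 0.26, edgeR adjusted p = 1.99e-05). The elongation factor gene eef-1A.1, which delivers aminoacyl-tRNA to the ribosome, was at 28980 and 29770 CPM, against 10330 and 5980 CPM (1.85, SE 0.24), and eef-2 at 12120 and 11300 CPM, against 4585 and 2531 CPM (1.72, SE 0.25). Other parts of the machinery were mixed. Initiation and elongation factor genes rose in 23 and fell in 4 of 39 cases (median 0.79). By library totals their median turned to -0.16, with 7 higher and 16 lower. Mitochondrial ribosomal protein genes rose in 28 and fell in 18 of 66 cases, and their median of 0.24 turned to -0.75 by library totals. The valyl-tRNA synthetase gene vars-1 fell to 4.13 and 2.63 CPM, against 46.7 and 50.8 CPM in rIIS-C (-3.91, SE 0.29). The ribosome biogenesis list stood at 6 higher and 5 lower of 23 (median -0.10, with 3 higher without skn-1 RNAi replicate 1, 3 lower without replicate 2, and 12 higher and 3 lower with the exon length trend removed), with rbd-1 falling (-3.11, SE 0.24) and the pescadillo homologue lpd-7 at 513.2 and 449 CPM, against 172 and 114 CPM in rIIS-C (1.75, SE 0.20).

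Oxidative phosphorylation genes and glycolysis and citrate cycle genes also rose more often than they fell, though not by library totals. Oxidative phosphorylation genes rose in 34 of 47 cases and fell in 1, or in 3 without rIIS-C replicate 2 (median 0.99, and 0.82 and 1.09 within the replicate 1 and replicate 2 pairs), and their median was 0.04 by library totals and -0.02 with limma on RPKM. cox-6A, a cytochrome c oxidase subunit, was at 650 and 841 CPM in skn-1 RNAi, against 177 and 178 CPM in rIIS-C (2.07, SE 0.18), and isp-1, the Rieske protein of complex III, at 897 and 1043 CPM, against 288 and 258 CPM (1.83, SE 0.17). Glycolysis and citrate cycle genes rose in 26 of 40 cases and fell in 2 (median 0.56, turning to -0.38 by library totals), with 17 higher without skn-1 RNAi replicate 2. Aldolase aldo-2 was at 2670 and 2926 CPM, against 852 and 656 CPM in rIIS-C (1.89, SE 0.17), and citrate synthase cts-1 at 3248 and 3458 CPM, against 1061 and 793 CPM (1.85, SE 0.17).

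Gene length moved with the direction of change. Among the genes with the shortest exons in total (36 to 576 bases) 39.0% rose and 19.6% fell, and their median was 0.42. Among the longest (1879 to 55407 bases) 9.8% rose and 43.5% fell, with a median of -0.56. With this trend removed 4775 genes were higher and 3657 lower, with a median of 0.12. In that fit 79 of 82 ribosomal protein genes were still higher (median 1.79), as were 70 of 92 neuropeptide genes (median 1.49) and 104 of 139 col genes (median 2.51), while UDP-glucuronosyltransferases stood at 10 higher and 21 lower (median -0.23). The level of expression moved with it too: of the genes with the highest mean CPM (56.9 and above) 42.9% rose and 21.1% fell, against 13.6% and 22.1% of those with the lowest (under 2.53 CPM).

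**Figure D4:**
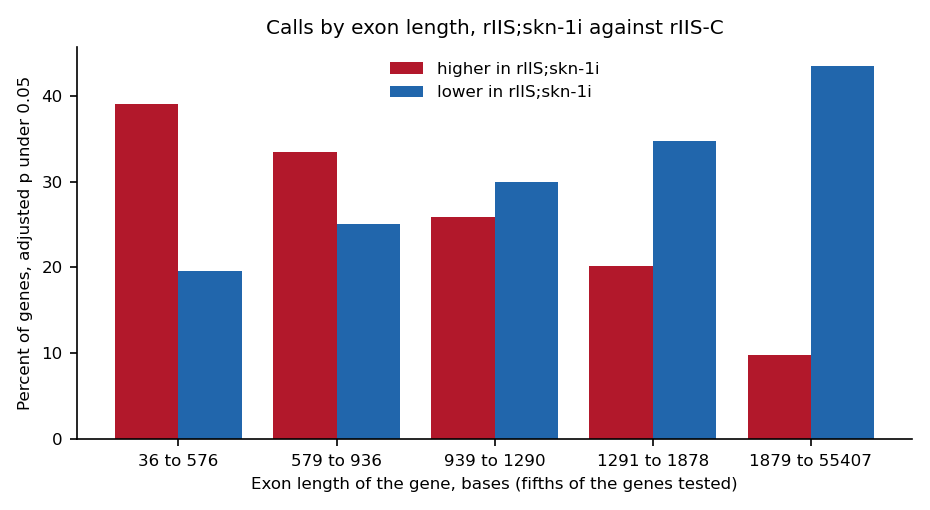
Percent of genes that rose and percent that fell in skn-1 RNAi against rIIS-C, for the 13892 tested genes in 5 classes of near-equal size by total exon length. The share that rose declines over the classes, at 39.0%, 33.4%, 25.9%, 20.2% and 9.8%, and the share that fell climbs, at 19.6%, 25.1%, 30.0%, 34.7% and 43.5%.

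Cuticle collagens, which are secreted by the epidermis in stage-specific waves, were broadly higher in skn-1 RNAi than in rIIS-C. Of 139 col genes tested (156 listed), 99 rose and 5 fell (3 without either skn-1 RNAi library), with a median of 2.36 (1.82 and 2.72 within the replicate 1 and replicate 2 pairs, 1.43 by library totals, and 3.01 and 1.67 without rIIS-C replicate 1 and 2). They took 11.4% and 12.1% of exon reads in skn-1 RNAi, against 6.73% and 5.51% in rIIS-C. col-146 was at 406 and 538 CPM, against 18.6 and 15.8 CPM in rIIS-C (4.79, SE 0.22, edgeR adjusted p = 3.22e-07), and col-12 at 1140 and 1317 CPM, against 83.8 and 50.5 CPM (4.20, SE 0.24). The adult-specific col-19 was at 7804 and 9834 CPM, against 3166 and 2268 CPM (1.70, SE 0.20). col-135 went the other way, at 41.3 and 38.4 CPM, against 112.5 and 76.5 CPM (-1.24, SE 0.22). The 20 body-shape collagens, whose mutants are short, long or twisted, rose in 13 cases and fell in none (median 1.74, 0.81 by library totals and 1.1 without rIIS-C replicate 2), with dpy-5 at 174 and 184 CPM, against 23.97 and 15.9 CPM in rIIS-C (3.20, SE 0.20). In rIIS-C over C the median log2 fold change was -1.35 for the col genes and -2.05 for the body-shape collagens. In skn-1 RNAi over C these medians were 0.85 and -0.14. Values over all genes in the comparisons with C are not given here.

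Markers of several tissues rose as groups. Body wall muscle genes rose in 23 of 38 cases and fell in 4, or in 2 without rIIS-C replicate 1 or skn-1 RNAi replicate 2 (median 1.11, and 0.14 by library totals), and their summed level was 29664 and 29697 CPM in skn-1 RNAi, against 8366 and 6881 CPM in rIIS-C. The myosin heavy chain gene unc-54 was at 6046 and 5504 CPM, against 627 and 341 CPM (3.58, SE 0.29, edgeR adjusted p = 3.2e-06), and paramyosin unc-15 at 3803 and 3347 CPM, against 376 and 246 CPM (3.53, SE 0.22). The median log2 fold change of the 38 muscle genes was -0.67 in rIIS-C over C and 0.11 in skn-1 RNAi over C. These medians too have no values over all genes beside them. Among the 4 that fell in skn-1 RNAi against rIIS-C were 2 genes of the muscle attachment complex. The kindlin gene unc-112 fell to 22.8 and 15.8 CPM, against 52.1 and 54.1 CPM (-1.48, SE 0.20), and so did the PINCH gene unc-97 (-1.34). Pharyngeal genes rose in 9 of 12 cases tested and fell in none (median 2.59, and 1.56 by library totals), with the pharyngeal myosin myo-1 at 120 and 102 CPM, against 14.4 and 4.81 CPM in rIIS-C (3.68, SE 0.44, and 4.52 without rIIS-C replicate 1 or 2.94 without replicate 2).

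In the nervous system the genes for secreted peptides rose as a group. Of 92 neuropeptide genes tested (106 listed), 77 rose and 1 fell (median 1.88, and 0.86 by library totals). nlp-2 was at 12.6 and 14.8 CPM in skn-1 RNAi, against 1.44 and 1.14 CPM in rIIS-C (3.47, SE 0.28), and flp-5 at 18.1 and 17.6 CPM, against 2.88 and 2.74 CPM (2.67, SE 0.25). Of the 117 other neuronal genes tested, 34 fell and 19 rose (median -0.44, or -0.43 with genes at 0 set to their bound), a share of falls close to that of all genes, and 17 fell without skn-1 RNAi replicate 2. unc-104, the kinesin that carries synaptic vesicles, fell to 5.65 and 5.02 CPM, against 24.7 and 20.7 CPM in rIIS-C (-2.09, SE 0.30). The pan-neuronal marker unc-119 was at 9.13 and 9.66 CPM, against 6.85 and 8.07 CPM (0.32, edgeR adjusted p = 0.24, and -0.68 by library totals).

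Intestinal markers, from the tissue in which SKN-1 acts on detoxification, rose in 14 of 24 cases and fell in 4 (median 0.94, 0.00 by library totals and -0.07 with limma on RPKM). Their summed level was 23296 and 23811 CPM in skn-1 RNAi, against 5486 and 3817 CPM in rIIS-C. The gut esterase ges-1 was at 146 and 115 CPM, against 28.3 and 21.4 CPM (2.41, SE 0.20, edgeR adjusted p = 3.55e-06). elt-2, the GATA factor that defines the intestine, was at 8.70 and 9.03 CPM, against 14.96 and 11.4 CPM (-0.54, edgeR adjusted p = 0.0537), and passed the test as lower without rIIS-C replicate 2 (-0.75, edgeR adjusted p = 0.0266) and with the read class block (-0.53, edgeR adjusted p = 0.0482). Of the proteases and proton pump of the lysosome, 25 of 41 tested rose and 4 fell (median 0.59, turning to -0.36 by library totals). Cathepsin B cpr-1 was at 2244 and 2729 CPM, against 202 and 180 CPM in rIIS-C (3.70, SE 0.18, edgeR adjusted p = 3.41e-07), and the aspartyl protease asp-1 at 10640 and 9969 CPM, against 1632 and 765 CPM (3.10, SE 0.31, and 3.75 without rIIS-C replicate 1).

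Yolk protein genes, expressed in the adult intestine, moved in both directions. vit-4 was at 229 and 188 CPM in skn-1 RNAi, against 5051 and 2036 CPM in rIIS-C (-4.09, SE 0.41, edgeR adjusted p = 1.08e-05). vit-3 was at 178 and 150 CPM, against 2950 and 1286 CPM (-3.69, SE 0.40, edgeR adjusted p = 1.92e-05), and vit-1 at 224 and 130 CPM, against 2837 and 957 CPM (-3.43, SE 0.49, edgeR adjusted p = 0.000137). All 3 had both RNAi libraries more than 4-fold below both controls, and without rIIS-C replicate 1 they were at -3.29, -2.98 and -2.45. vit-2 was instead at 39890 and 34830 CPM, against 20580 and 7569 CPM in rIIS-C (1.41, SE 0.38, edgeR adjusted p = 0.008), with 2.3 without rIIS-C replicate 1 and 0.54 with an edgeR adjusted p of 0.116 by library totals. vit-6 was at 37920 and 29490 CPM, against 23350 and 7465 CPM (1.13, SE 0.43, edgeR adjusted p = 0.0435), and lost the call without rIIS-C replicate 2 or either skn-1 RNAi replicate (edgeR adjusted p = 0.169, 0.16 and 0.0698). vit-5 was at 10540 and 9389 CPM, against 8830 and 3628 CPM (0.68, edgeR adjusted p = 0.122, -0.20 by library totals, and 1.45 without rIIS-C replicate 1). It passed the test as higher with the read class block (0.76, edgeR adjusted p = 0.0237) and with the exon length trend removed (1.64, edgeR adjusted p = 2.84e-05). The controls differed from each other by more than 2-fold at every vit gene. vit-1 resembles vit-2 closely and vit-3 and vit-4 resemble vit-5, so the counting could split reads between them.

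Genes of the germ line moved in both directions. Of 42 oocyte and eggshell genes 9 rose and 9 fell, and both shares lay below those over all genes. Their median of -0.18 was 0.3 without rIIS-C replicate 1 and -0.49 without rIIS-C replicate 2. The yolk receptor rme-2 was at 566 and 496 CPM in skn-1 RNAi, between the 801 and 438 CPM of rIIS-C (-0.22, edgeR adjusted p = 0.469), and passed the test as lower without rIIS-C replicate 2 (-0.59, edgeR adjusted p = 0.018). Germline and meiosis genes fell in 15 and rose in 5 of 37 cases (median -0.18), with 11 rising without rIIS-C replicate 1 and 1 without rIIS-C replicate 2 or skn-1 RNAi replicate 1, and 3 without skn-1 RNAi replicate 2. spo-11, which makes the double-strand breaks of meiosis, fell to 6.52 and 6.02 CPM, against 44.2 and 59.1 CPM (-3.06, SE 0.21). Sperm genes rose in 42 and fell in 19 of 93 cases (median 0.59, turning to -0.39 by library totals). msp-63, a major sperm protein gene that shares sequence with its many copies, was at 59.6 and 82.3 CPM, against 5.23 and 4.71 CPM in rIIS-C (3.86, SE 0.29). Of 66 early zygotic and endomesoderm genes, from the stage at which SKN-1 first acts, 36 were tested, of which 12 fell and 4 rose (median -0.75), with 5 falling without skn-1 RNAi replicate 2 and 6 without rIIS-C replicate 2. The share of falls was close to that of all genes. The median log2 fold change of the 36 was 0.73 in rIIS-C over C and 0.54 in skn-1 RNAi over C, again with no values over all genes beside them. The direct SKN-1 targets end-1 and med-1 were too low for a test.

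Among defence genes the secreted antimicrobial products rose. Of 12 lysozyme genes tested (16 listed), 10 rose and none fell (median 2.71, 2.57 with genes at 0 set to their bound, and 1.72 by library totals). lys-4 was at 327 and 369 CPM in skn-1 RNAi, against 44.3 and 52.7 CPM in rIIS-C (2.84, SE 0.18, edgeR adjusted p = 6.86e-07), and lys-7 at 391 and 476 CPM, against 43.98 and 39.45 CPM (3.38, SE 0.19, edgeR adjusted p = 4.58e-07). Of 52 antimicrobial peptide and saposin genes tested (88 listed), 38 rose and 4 fell (median 1.96, and 0.94 by library totals, with 2 lower without rIIS-C replicate 2). The thaumatin family gene thn-2 was at 422 and 566 CPM, against 28.7 and 29.0 CPM in rIIS-C (4.10, SE 0.19), and thn-1 at 40.0 and 54.1 CPM, against 1.44 and 0.465 CPM (6.001, SE 0.43, and 6.63 or 5.02 without rIIS-C replicate 1 or 2). C-type lectins, a family of secreted sugar-binding proteins, rose in 45 and fell in 17 of 107 cases tested out of 239 listed (median 0.72, turning to -0.24 by library totals). clec-60 was at 236 and 216 CPM, against 14.4 and 8.12 CPM in rIIS-C (4.39, SE 0.30), and clec-266 at 1.52 and 1.88 CPM, against 10.1 and 19.6 CPM (-3.13, SE 0.43, and -2.53 without rIIS-C replicate 2). dod-24, a pathogen-response gene, had no read in skn-1 RNAi, against 17 and 60 reads (3.06 and 3.10 CPM) in rIIS-C, so that it was at least 5.99-fold lower against a floor of 3 reads per library.

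Fat and amino acid metabolism changed gene by gene. icl-1, the enzyme of the glyoxylate shunt that lets worms make sugar from fat, was at 3812 and 3764 CPM in skn-1 RNAi, against 427 and 358 CPM in rIIS-C (3.27, SE 0.17, edgeR adjusted p = 3.41e-07). acs-2, an acyl-CoA synthetase that feeds fatty acids to mitochondria, was at 1262 and 1379 CPM, against 182 and 149 CPM (2.999, SE 0.17, edgeR adjusted p = 4.93e-07). fat-6, which inserts a double bond into stearoyl-CoA, was at 1001 and 1094 CPM, against 172 and 182 CPM (2.56, SE 0.15, edgeR adjusted p = 4.93e-07). The elongases elo-5 and elo-6, which make branched-chain fatty acids, fell instead: elo-5 was at 63.3 and 85.9 CPM, against 193 and 322 CPM in rIIS-C (-1.79, SE 0.24), and elo-6 at 66.5 and 79.1 CPM, against 345 and 464 CPM (-2.47, SE 0.19). Among the 23 desaturases and elongases 9 rose and 7 fell (median 0.41, turning to -0.57 by library totals), and among 70 fatty acid oxidation genes 20 rose and 18 fell (median -0.11). Both shares of the fatty acid oxidation genes lay close to those over all genes.

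In the folate and methionine cycles 13 of 26 genes tested fell and 6 rose (median -0.44). The folate transporter gene folt-2 was at 1.09 and 2.01 CPM in skn-1 RNAi, against 41.1 and 48.1 CPM in rIIS-C (-4.75, SE 0.24, edgeR adjusted p = 3.41e-07, and -5.35 without skn-1 RNAi replicate 2). gcsh-1, a component of glycine cleavage, was at 1.30 and 0.502 CPM, against 15.9 and 30.8 CPM (-4.88, SE 0.49, with -4.28 without rIIS-C replicate 2, and -5.55 or -4.19 without skn-1 RNAi replicate 1 or 2). pmt-1, which methylates phosphoethanolamine on the way to phosphatidylcholine, rose to 1671 and 1600 CPM, against 381 and 297 CPM in rIIS-C (2.27, SE 0.16). acdh-1, an acyl-CoA dehydrogenase of the propionate shunt, fell to 0.435 and 1.38 CPM, against 10.3 and 12.98 CPM in rIIS-C (-3.52, SE 0.34, and -4.73 without skn-1 RNAi replicate 2). nhr-114, a nuclear hormone receptor that keeps worms fertile on some bacterial diets, fell to 3.04 and 4.01 CPM, against 40.9 and 43.4 CPM (-3.54, SE 0.26). Of 167 nuclear hormone receptor genes tested (268 listed), 54 fell and 22 rose (median -0.51), and the falls were close to the share over all genes, with 32 lower and 14 higher without skn-1 RNAi replicate 2 and 35 lower without rIIS-C replicate 2.

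Protein folding and turnover genes were mixed. Proteasome genes rose in 18 of 33 cases and fell in 1 (median 0.43, turning to -0.52 by library totals), with 7 higher without skn-1 RNAi replicate 2 and 9 without rIIS-C replicate 2. The gene that fell was the core subunit pas-7, at 69.8 and 58.6 CPM in skn-1 RNAi, against 130 and 143 CPM in rIIS-C (-1.09, SE 0.15). In the endoplasmic reticulum calreticulin crt-1 was at 2385 and 2485 CPM, against 833 and 658 CPM (1.71, SE 0.17), while ire-1, a sensor of misfolded proteins there, fell to 22.2 and 22.6 CPM, against 101 and 79.2 CPM (-1.999, SE 0.19). The selective autophagy receptor sqst-1 was at 279 and 252 CPM, against 66.7 and 62.4 CPM in rIIS-C (2.04, SE 0.14), and the autophagy initiation genes atg-13 (-1.72, SE 0.16) and vps-34 (-1.68, SE 0.15) fell. Heat-inducible chaperone genes fell in 6 and rose in 4 of 16 cases (median -0.58), with 10 lower without rIIS-C replicate 1. The small heat shock gene hsp-16.48, which shares reads with its copy hsp-16.49, was at 16.3 and 22.4 CPM, against 66.0 and 223 CPM (-2.90, SE 0.46, edgeR adjusted p = 0.000289, and -3.50 or -1.75 without rIIS-C replicate 1 or 2).

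Genes of the RNA interference machinery, through which skn-1 was lowered, passed the test about as often as all genes, of which 56.2% did. Of 53 tested, 20 fell and 11 rose (median -0.19, turning to 0.43 with the exon length trend removed), with 20 rising without rIIS-C replicate 1 and 7 without rIIS-C replicate 2 or skn-1 RNAi replicate 2. rde-1, the Argonaute that binds small RNAs from foreign double-stranded RNA, fell to 12.8 and 11.3 CPM in skn-1 RNAi, against 91.6 and 72.3 CPM in rIIS-C (-2.77, SE 0.20, edgeR adjusted p = 1.39e-06). rrf-3, the RNA polymerase gene mutated in both groups, fell to 7.39 and 6.15 CPM, against 33.4 and 29.0 CPM (-2.21, SE 0.29, edgeR adjusted p = 7.85e-05). eri-6 and eri-7, which together encode a helicase of the endogenous pathway, were lower as well, with eri-7 at 3.48 and 2.13 CPM, against 28.5 and 44.7 CPM in rIIS-C (-3.79, SE 0.29), and the Argonaute ppw-2 was higher, at 277 and 244 CPM, against 93.0 and 49.3 CPM (1.89, SE 0.26).

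Set beside the other RNAi treatments, skn-1 RNAi came with more called genes than daf-16 RNAi. daf-16 RNAi was compared with the same rIIS-C libraries and called 6.07% of the genes, 457 higher (3.29%) and 386 lower (2.78%). Directly between the RNAi groups, 58.6% of the genes differed, with 3902 higher (28.1%) and 4236 lower (30.5%) in skn-1 RNAi than in daf-16 RNAi, and of the 15 detoxification targets 2 were higher and 6 lower. Ribosomal protein genes were higher in skn-1 RNAi than in daf-16 RNAi in 79 of 82 cases, and none of them was called in daf-16 RNAi against rIIS-C. Several genes lay above rIIS-C in skn-1 RNAi and below it in daf-16 RNAi. T22F3.11, which lies on chromosome V, was at 1767 and 2095 CPM in skn-1 RNAi, 1.17 and 0.785 CPM in daf-16 RNAi, 61.8 and 57.1 CPM in rIIS-C and 0.962 and 0.377 CPM in C. Against rIIS-C it was higher by 5.02 (SE 0.26, edgeR adjusted p = 3.41e-07) in skn-1 RNAi. lys-7 was at 391 and 476 CPM in skn-1 RNAi, 2.92 and 2.78 CPM in daf-16 RNAi, 43.98 and 39.45 CPM in rIIS-C and 4.81 and 3.87 CPM in C, and icl-1 and the alcohol dehydrogenase gene sodh-1 lay in the same order of RNAi groups, with sodh-1 at 3485 and 2829 CPM in skn-1 RNAi, 39.1 and 38.7 CPM in daf-16 RNAi and 530 and 402 CPM in rIIS-C. acdh-1 and folt-2 lay the opposite way, with folt-2 at 1.09 and 2.01 CPM in skn-1 RNAi, 154 and 151 CPM in daf-16 RNAi and 41.1 and 48.1 CPM in rIIS-C. The collagens col-146, col-117 and col-7 were higher in both RNAi groups, by 4.79, 4.76 and 4.51 in skn-1 RNAi and by 3.17, 3.93 and 4.003 in daf-16 RNAi.

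**Figure D5:**
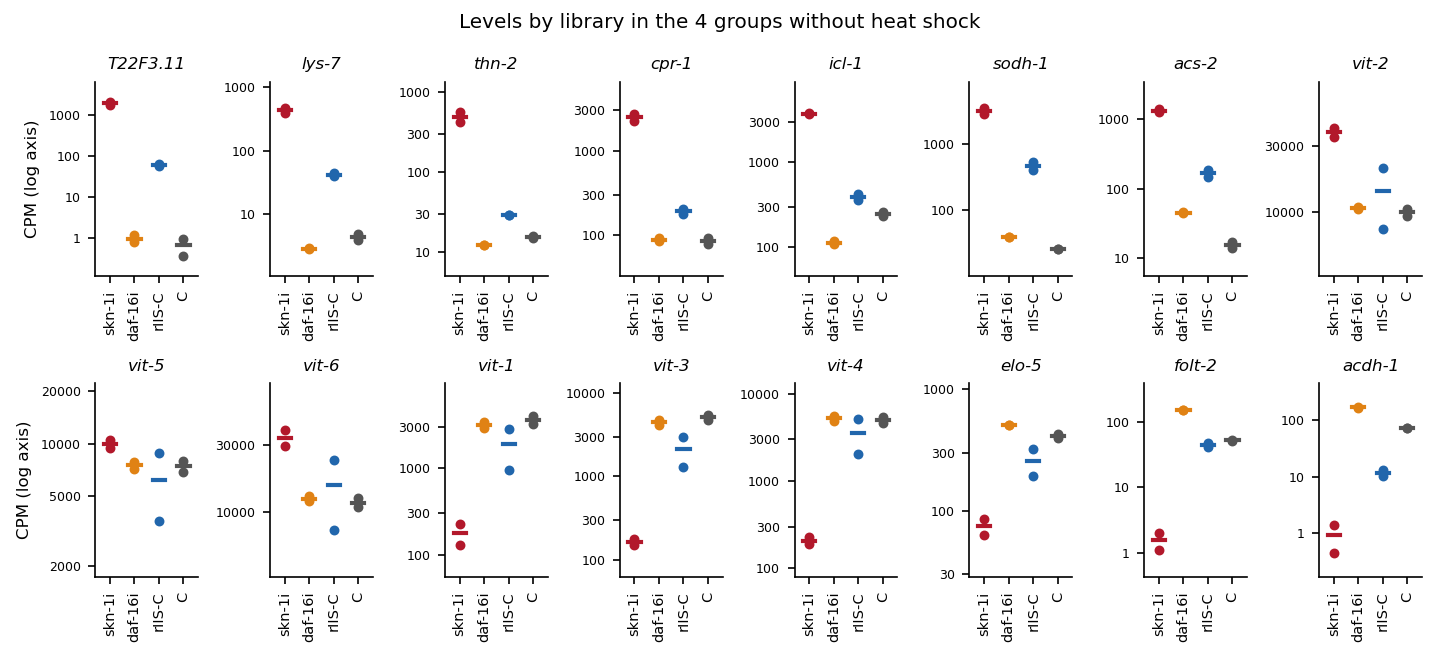
CPM per library on log axes for 16 genes in skn-1 RNAi, daf-16 RNAi, rIIS-C and C. T22F3.11, lys-7, icl-1 and sodh-1 are highest in skn-1 RNAi and lower in daf-16 RNAi than in rIIS-C, folt-2 and acdh-1 show the reverse, and vit-1, vit-3 and vit-4 lie lowest in skn-1 RNAi while vit-2 lies highest there.

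The response to hsf-1 RNAi was measured after heat shock and against a heat-shocked control, so the RNAi target and the heat shock cannot be told apart in what follows. That comparison, hsf-1 RNAi (HS) against rIIS-C (HS), called 38.1% of the genes, 2611 higher (18.8%) and 2683 lower (19.3%). The hsf-1 RNAi libraries had TMM factors of 0.627 and 0.621, close to those of skn-1 RNAi, and the 6 libraries of the other groups beside rIIS-C lay between 1.07 and 1.27. Ribosomal protein genes rose in 79 of 82 cases under skn-1 RNAi (median 2.04) and in 78 under hsf-1 RNAi (median 1.64). Neuropeptide genes rose in 77 of 92 cases under skn-1 RNAi (median 1.88) and in 67 under hsf-1 RNAi (median 1.77), and oxidative phosphorylation genes in 34 of 47 under skn-1 RNAi (median 0.99) and in 28 under hsf-1 RNAi (median 0.85). The direct test of a difference between the responses, an interaction term in the same fit, called 12.4% of the genes, with 684 more positive (4.92%) and 1045 more negative (7.52%) under skn-1 RNAi. Of the ribosomal protein genes 2 passed this test and of the neuropeptide genes 5, all more positive under skn-1 RNAi. The term passed for 49 col collagens as more positive and 5 as more negative, for 16 of 52 antimicrobial peptide and saposin genes as more positive and 1 as more negative, and for 6 of 12 lysozymes as more positive. Of the 15 detoxification targets 4 were more negative under skn-1 RNAi and 1 more positive, and vit-1, vit-3 and vit-4 were more negative as well. skn-1 differed by -1.95 between the responses (edgeR adjusted p = 0.002), rrf-3 by -0.51 (edgeR adjusted p = 0.48) and lys-4 by 2.77 (edgeR adjusted p = 8.4e-05).

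The largest changes outside these groups fell on little-described genes. F46F2.3 was at 4.57 and 6.27 CPM in skn-1 RNAi, against 195 and 116.5 CPM in rIIS-C (-4.80, SE 0.30), and F54H5.2 at 0.435 and 0.376 CPM, against 10.8 and 21.6 CPM (-5.36, SE 0.54, and -4.72 without rIIS-C replicate 2). The arrestin-domain gene arrd-11 was at 17.2 and 16.7 CPM, against 0.361 and 0.465 CPM in rIIS-C (5.23, SE 0.40). C24H11.2 had 381 and 153 reads in skn-1 RNAi and none in rIIS-C, but it also had reads in only 1 library each of daf-16 RNAi and rIIS-C (HS).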

How the data were processed

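RNA was made into libraries with a TruSeq RNA kit that does not mark strand, so reads of a gene and of one overlapping it on the other strand cannot be told apart. Per the study's methods and the submitters' processing notes, reads were demultiplexed with CASAVA 1.8.2 and mapped to WBcel235 in CLC Genomics Workbench. The deposited values used were counts of total exon reads per gene, and the RPKM that the authors computed from them. In the files 6 value columns of no named sample were not used. Groups were taken from the labels.

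The counts of 12 libraries in 6 groups (all but the heat-shocked rrf-3 control) were fitted together with edgeR 4.0.16 in R 4.3.3 (filterByExpr, TMM, quasi-likelihood test, common dispersion 0.0275), with Benjamini-Hochberg adjustment over 13892 genes and a threshold of 0.05. The interaction term was fitted the same way. Tables were made with Python 3.11.15. With 2 libraries in each group the smallest exact permutation p could not reach the threshold, so tests rest on the spread shared across genes.

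Alternatives were DESeq2 1.42.0, limma 3.58.1 on log2(RPKM + 1), other scalings and filters, blocks by replicate number and by read class (the latter added after the data were seen), and each library left out. A library left alone in its group was assumed to vary like the other groups. In counts simulated for skn-1 RNAi against rIIS-C, the test found 50 of 50 genes raised and 49 of 50 lowered by 2 on the log2 scale, 38 of 50 raised and 24 of 50 lowered by 1, and called 8 of 13253 unchanged genes. These counts had the same dispersion for every gene and few changed genes. They held no difference between groups in composition and none between libraries in read class. They therefore check the fit only and give no error rate for the real libraries, which differed in both.

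The gene lists and the comparison were chosen with earlier results of these data known, and so support no claim of independence. Genes named in the text were skn-1, daf-2, rrf-3 and genes the study discusses, members of the short SKN-1, insulin, detoxification, yolk and superoxide dismutase lists, up to 3 members of each list in each direction that changed most among those called with at least 10 CPM in 1 group, and the 12 largest changes in each direction among called genes with a mean of at least 10 CPM in 1 group and the same direction in all 4 pairs of libraries. Not every such gene is printed, and some others were named after their values were seen. Where a list median is given with genes at 0 set to their bound, the floor was 3 reads, which covers counting error only. The values of 1 gene of the insulin pathway list are not reported here.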

Additional observations from a re-analysis of the deposited data

How the results depend on the processing

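The fall of skn-1 passed the test in every alternative run, between -1.75 with the length trend removed and -3.24 with library totals (-2.0 to -2.58 with 1 library left out). The count of higher and lower genes between skn-1 RNAi and rIIS-C (3564 and 4247) depended on scaling: it was 1112 and 8777 with library totals and 1099 and 8744 with limma on RPKM, while all other alternatives stayed within 1.5 times. With 1 library left out it ran from 2594 to 3719 and from 3098 to 4197. Against daf-16 RNAi it was 1421 and 7846 with library totals and 1333 and 7960 with limma. The interaction with hsf-1 RNAi was the least stable count. Its 684 positive genes were 358 with library totals, 139 with all 14 libraries, 1900 with the length trend removed, 1253 with the read class block, 264 with only the groups compared and 286 with limma. Its 1045 negative genes were 339 with all 14 libraries, 1701 with the read class block and 388 with only the groups compared. With 1 library left out they ran from 304 (without skn-1 RNAi replicate 2) to 1188 (without rIIS-C replicate 1), and from 381 to 1507 for the same libraries. The causes were not tested.

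The labels number replicates 1 and 2 in each group, but they do not say what same-numbered libraries share. Deviations of same-numbered libraries from their group means correlated at 0.211 over genes between skn-1 RNAi and rIIS-C and from -0.353 to 0.312 over all 15 pairs of groups. Libraries of the same read class correlated at 0.098 to 0.353 over those pairs, and the negative values were the pairs with rIIS-C (HS), whose numbers run opposite to read class. With the replicate block 3525 genes were higher and 4161 lower, skn-1 was at -2.30, and the interaction called 592 and 882 genes.

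Of 154 named genes tested, 17 turned sign in some alternative, of which 11 passed the test in that alternative or in the reported result. With library totals and with limma on RPKM these were sek-1 (-0.26 and -0.31), tir-1 (-0.37 and -0.36), akt-2 (-0.18 and -0.20), gst-6 (-0.04 and -0.02), ugt-11 (-0.07 and -0.08), sod-1 (-0.03 and -0.09), sod-3 (-0.36 and -0.29), pgp-9 (-0.42 and -0.43) and unc-119 (-0.68 and -0.61), and with the length trend removed rme-2 (0.47) and glp-1 (0.69). The other 6 were daf-16 and vit-5 with library totals, and daf-2, hsf-1, wdr-23 and mdt-15 with the length trend removed. Removing that trend also turned the median of these lists: SKN-1 and its regulators (0.21), insulin pathway (0.33), cytochrome P450 (0.01), glutathione and thioredoxin (-0.04), ribosome biogenesis (0.44), oocyte (0.45), germline (0.18), fatty acid oxidation (0.31), RNA interference (0.43), aminoacyl-tRNA synthetases (0.44) and spe and fer (0.17). With 2 libraries a group, genes under about 1 CPM rest on a few reads.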

Other observations

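Genes with a MATH domain, many of which encode adaptors for protein degradation, were grouped after their values were seen. Of 37 listed, 22 were tested, of which 17 were lower and 1 higher in skn-1 RNAi (median log2 fold change -2.17, or -2.07 with genes at 0 set to their bound), and 11 were lower without skn-1 RNAi replicate 2. F-box genes, another large family of degradation adaptors, were lower in 42 and higher in 18 of 144 cases tested out of 321 listed (median -0.64, or -0.57 with genes at 0 set to their bound), close to the share of all genes, with 18 lower without rIIS-C replicate 2. The major sperm protein genes were all but 3 higher (28 of 31, median 2.43), whereas of the spe and fer genes, which act in sperm formation and fertilization, 9 of 26 were lower and 3 higher (median -0.48). Both families were also grouped after their values were seen, and the copies of the major sperm protein gene are near-identical. Aminoacyl-tRNA synthetase genes, which charge tRNAs, were lower in 12 and higher in 5 of 31 cases (median -0.11), with 12 higher without rIIS-C replicate 1, while 23 of 39 initiation and elongation factor genes were higher and 4 lower (median 0.79, and -0.16 by library totals).

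Histone genes rose in 30 of 49 cases tested (80 listed) and fell in 2 (median 1.60), with 12 higher and a median of 0.88 without skn-1 RNAi replicate 2. Many of their mRNAs lack a poly(A) tail and many copies share sequence, so the values may be split. Transthyretin-related genes, which encode small secreted proteins, rose in 27 of 52 cases and fell in 9 (median 0.83, and -0.19 by library totals).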
